A study of Mus musculus with 16 samples.

Results

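Interferon-stimulated genes are the genes that cells switch on in response to interferons, and 42 of them were examined with and without Rock2 in B cells of the follicle (FoB, follicular B cells) and of the germinal center (GCB). They were chosen by name as rows of the deposited gene table, which holds 25640 genes, and 42 of 42 were found. All 42 were among the 13708 genes that passed the filter on low counts and were tested. They comprised 10 antiviral effectors, 5 oligoadenylate synthetases and related proteins, 5 RNA sensors with their ubiquitin ligase, 6 signaling and feedback genes, 5 guanylate-binding proteins (Gbp genes), 5 immunity-related GTPases and 6 other induced genes.

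Polyadenylated RNA was sequenced from B cells sorted from spleens of C57BL/6 mice aged 10 weeks, 7 days after they were given 100 µg of the hapten-protein conjugate NP-CGG in alum. FoB are resting B cells of the follicle, and GCB are the dividing B cells that arise from them after immunization. All mice were Rock2 flox/flox. The conditional knockout (cKO) mice had CD23-Cre in addition, a Cre that follows CD23 expression in maturing B cells, and the WT mice lacked Cre. Both cell types were taken from both genotypes, with 3 libraries a group, numbered 1 to 3. No label says that these came from different mice, so p-values measure only the spread between these samples. Levels below are CPM, read counts scaled to library size and, by TMM factors, to library composition, and values are listed in the order of libraries 1, 2 and 3.

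Type I interferons act through Ifnar1 and Ifnar2, and interferon gamma acts through Ifngr1 and Ifngr2. The receptors signal through Janus kinases to STAT proteins. Stat2 and Irf9 belong to the complex that binds the interferon-stimulated response element, while STAT pairs bind the gamma-activated site. The induced proteins recognize or destroy viral RNA, modify other proteins, attack the vacuoles of intracellular microbes, and feed back on the pathway. B cells keep a resting level of many of these genes without infection.

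Total counts per library ran from 23349512 to 26967943. Rock2, a kinase of the actin cytoskeleton, stood at 151, 129 and 132 CPM in WT FoB and 123, 87.4 and 96.5 CPM in cKO FoB. In GCB, Rock2 stood at 198, 154 and 145 CPM in WT GCB and 119, 131 and 92.6 CPM in cKO GCB. In each cell type every cKO library of Rock2 lay below every WT library. The log2 fold change in GCB was -0.54 ± 0.18 (edgeR adjusted p = 0.563), and with the number as a block -0.53 ± 0.12 (edgeR adjusted p = 0.033). With the block it failed when any WT GCB library, cKO GCB 1 or cKO GCB 3 was left out, with adjusted p up to 0.176. In FoB it was -0.42 ± 0.18 and did not pass in either fit. Its counts cover the whole gene and not only the floxed part, so its remaining reads do not measure the deletion. The 12 FoB and 12 GCB marker genes followed the labelled cell types in WT mice, with 11 FoB markers lower and 11 GCB markers higher in GCB, and the remaining GCB-list gene, Cd38, lower. Libraries of number 2 had the highest share of mitochondrial counts, 3.72% to 5.50%, against 1.05% to 2.95% in the others. Libraries with the same number deviated together in all groups, so values from a fit with the number as a block are given where they change a call.

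Promoter sequence is shown for some genes with values below, and only where a match to the element that interferon-activated complexes bind was found. The genes printed were selected for that match, so its presence in each of them is not a result. The windows read were 250 bases before to 50 bases after each RefSeq start on GRCm38.p6 (mm10), and 31 of the 42 genes had an entry. The response element core was searched as GAAA, any 2 bases, GAAA, on both strands. It was present for 20 of the 31 genes (64.5%), against 3.99% of the 27025 genes in the whole promoter table. The gamma-activated site, TTCNNNGAA, which reads the same on both strands, was present for 11 of the 31 (35.5%), against 9.55%. All 4 Gbp genes with an entry held the response element core. The 4 of chromosome 3 are printed first, then Irgm1, Irgm2, Ifit3, Lgals9 and Ddx58, with every match to the response element core in capitals on the gene's own strand, 5′ to 3′. Gbp2, Gbp3 and Gbp7 were added after their values were seen. The intervals, in that order, are chr3:142620513-142620662 (plus strand), chr3:142559894-142560043 (plus), chr3:142496684-142496933 (plus), chr3:142530186-142530335 (plus), chr11:48871421-48871570 (minus), chr11:58214827-58214976 (plus), chr19:34583279-34583528 (plus), chr11:78984925-78985074 (minus) and chr4:40239814-40239835 (minus).
Gbp2: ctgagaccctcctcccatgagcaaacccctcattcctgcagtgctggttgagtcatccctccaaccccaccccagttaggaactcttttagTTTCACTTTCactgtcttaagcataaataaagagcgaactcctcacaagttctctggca
Gbp3: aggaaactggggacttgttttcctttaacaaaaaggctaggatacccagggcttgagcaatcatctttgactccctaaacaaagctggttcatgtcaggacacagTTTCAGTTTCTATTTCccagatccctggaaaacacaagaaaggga
Gbp5: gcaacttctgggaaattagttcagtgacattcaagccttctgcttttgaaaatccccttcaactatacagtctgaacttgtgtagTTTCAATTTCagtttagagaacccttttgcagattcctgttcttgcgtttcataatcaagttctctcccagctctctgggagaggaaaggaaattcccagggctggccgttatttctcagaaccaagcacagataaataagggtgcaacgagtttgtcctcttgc
Gbp7: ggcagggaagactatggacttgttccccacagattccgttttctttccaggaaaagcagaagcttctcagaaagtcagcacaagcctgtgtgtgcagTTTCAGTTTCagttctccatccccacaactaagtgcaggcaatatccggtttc
Irgm1: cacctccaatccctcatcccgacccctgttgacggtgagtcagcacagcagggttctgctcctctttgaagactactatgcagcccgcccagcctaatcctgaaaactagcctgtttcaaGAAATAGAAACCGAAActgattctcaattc
Irgm2: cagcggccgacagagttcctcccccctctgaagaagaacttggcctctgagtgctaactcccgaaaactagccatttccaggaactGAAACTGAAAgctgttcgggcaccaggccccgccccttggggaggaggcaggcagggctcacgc
Ifit3: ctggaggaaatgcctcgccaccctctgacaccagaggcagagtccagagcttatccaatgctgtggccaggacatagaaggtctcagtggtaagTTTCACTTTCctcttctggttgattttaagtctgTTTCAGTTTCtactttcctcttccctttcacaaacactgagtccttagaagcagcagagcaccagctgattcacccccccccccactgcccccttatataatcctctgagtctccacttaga
Lgals9: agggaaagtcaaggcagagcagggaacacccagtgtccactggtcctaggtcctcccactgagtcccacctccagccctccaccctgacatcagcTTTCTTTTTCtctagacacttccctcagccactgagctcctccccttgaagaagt
Ddx58: gccctgaggcagTTTCGATTTC

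In Gbp3 and in Irgm1 a pair of overlapping matches forms one longer run of capitals. In Ddx58 the match lies just past the start, so only the 22 bases around it are shown. Gbp9, Ifi27, Oas2, Parp14, Iigp1, Mx1, Rtp4, Zbp1, Parp9, Usp18 and Dhx58 had no entry in the promoter table. Oasl1, Oasl2, Trim25, Xaf1, Ifi47 and Ifit2 had an entry without a match to the response element core and are not printed. A match describes letters in this window and does not show that a factor binds there.

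**Figure D1:**
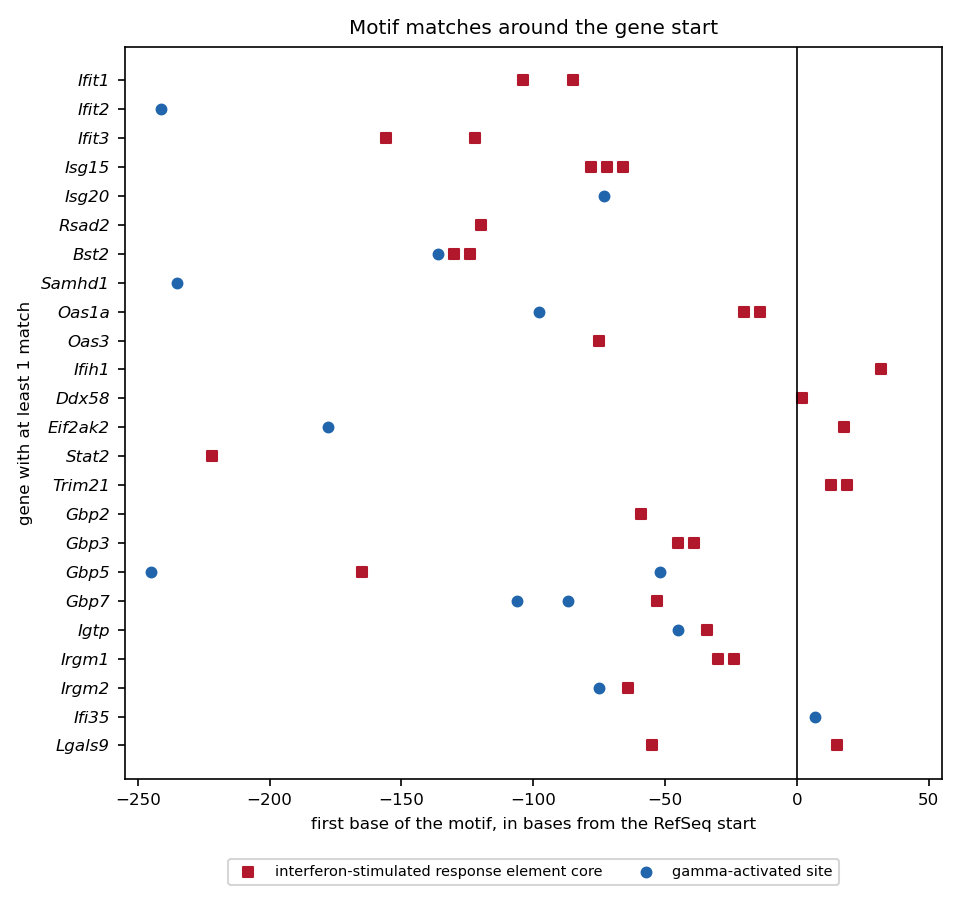
Positions of the 2 motifs around the RefSeq start of each gene with at least 1 match. The x axis is the first base of the motif in bases from the start (negative before it), squares are response element cores and circles gamma-activated sites. Squares lie within 250 bases before the start for most genes, and only past it in Ifih1, Ddx58, Eif2ak2 and Trim21.

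In WT mice, 36 of the 42 interferon-stimulated genes were lower in GCB than in FoB and 0 were higher. Among all genes tested, 22.8% were lower. The median log2 fold change was -1.70 over the 42 and -0.01 over all genes. For 36 of the 42, every WT FoB library lay above every WT GCB library, against 26.8% of all genes. With the replicate number as a block, 37 were lower. In these bulk samples fewer cells that express a gene and less of its RNA per cell cannot be told apart.

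**Figure D2:**
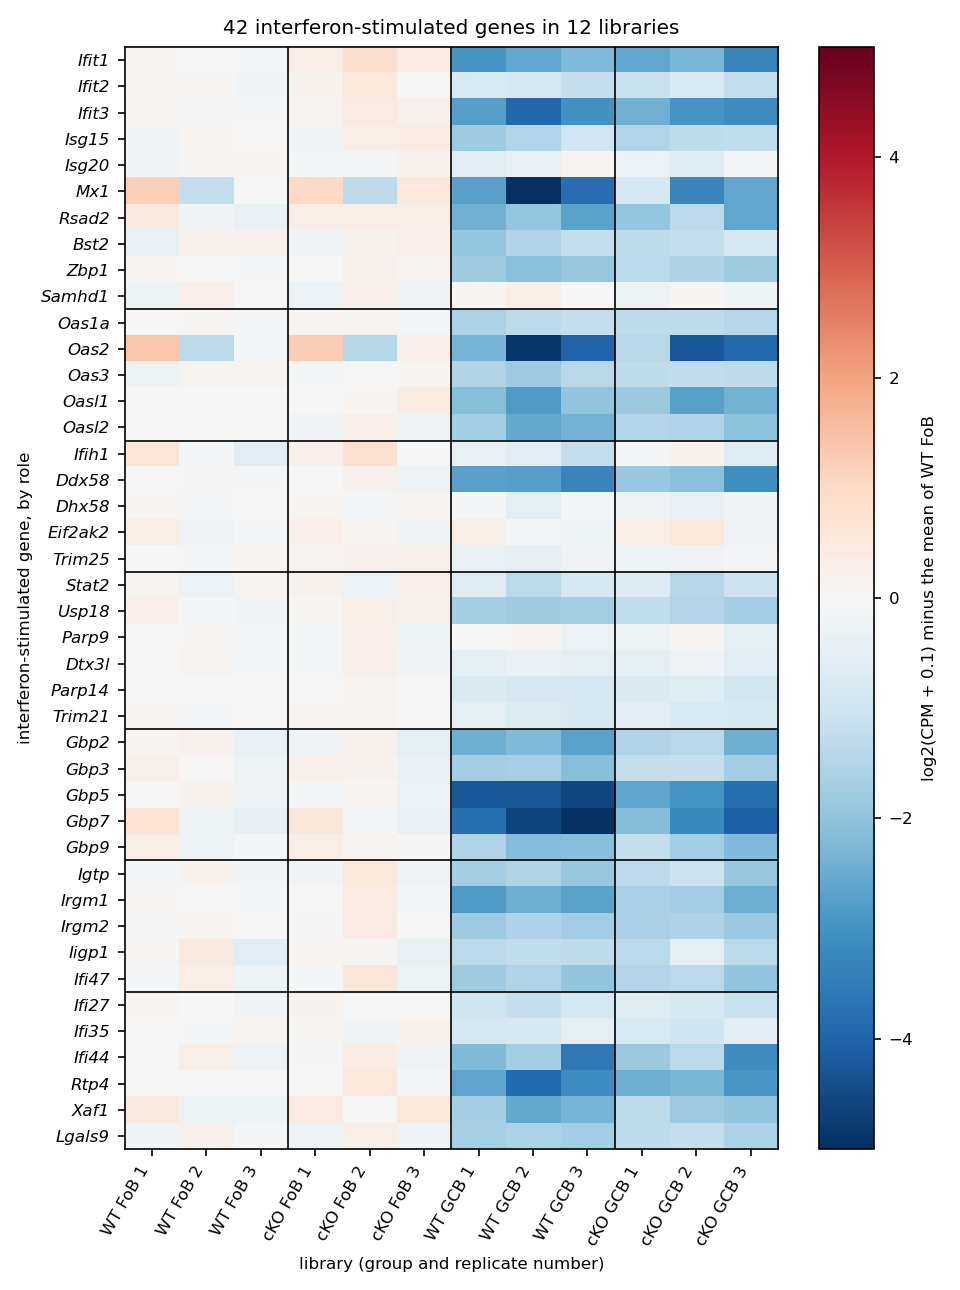
Levels of the 42 genes (rows, grouped by role) in the 12 libraries (columns), as log2(CPM + 0.1) minus the gene's mean in WT FoB. Blue is below and red above that mean. The GCB columns are blue for most rows in both genotypes, while Isg20, Samhd1, Dhx58, Eif2ak2 and Parp9 are near white throughout, and Mx1 and Oas2 differ between columns of the same group.

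The Gbp genes encode large GTPases that attack the vacuoles and membranes of intracellular microbes, and 5 of 5 were lower in WT GCB. Gbp5, which also promotes inflammasome activation, stood at 71.6, 78.3 and 61.1 CPM in WT FoB and 65.5, 75.3 and 57.4 CPM in cKO FoB. In GCB, Gbp5 stood at 3.59, 3.55 and 2.93 CPM in WT GCB and 11.2, 8.85 and 5.00 CPM in cKO GCB. Its FoB libraries were all far above its GCB libraries, and the log2 fold change of WT GCB over WT FoB was -4.39 ± 0.28 (edgeR adjusted p = 4.71e-07), among the largest of the 42. Gbp3 stood at 119, 102 and 83.7 CPM in WT FoB and 120.4, 114 and 80.1 CPM in cKO FoB. In GCB, Gbp3 stood at 30.03, 31.6 and 22.9 CPM in WT GCB and 44.4, 44.8 and 30.7 CPM in cKO GCB. For Gbp2 the FoB values were 60.6, 65.7 and 44.0 CPM in WT FoB and 50.1, 64.8 and 40.8 CPM in cKO FoB. Its GCB values were 10.3, 12.2 and 8.71 CPM in WT GCB and 19.5, 21.4 and 10.1 CPM in cKO GCB. No FoB library of Gbp2 or Gbp3 fell to the level of any GCB library. The log2 fold changes were -1.85 ± 0.22 for Gbp3 and -2.45 ± 0.29 for Gbp2. Gbp7 had the steepest change of the 42, at -4.73 ± 0.66 (edgeR adjusted p = 0.000107), and Gbp9 changed by -1.91 ± 0.27.

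The immunity-related GTPases mark or disrupt pathogen vacuoles, and 5 of 5 were lower in WT GCB. Irgm1, a regulatory member of the family that controls membrane trafficking and autophagy in mice, stood at 98.2, 94.1 and 87.7 CPM in WT FoB and 93.8, 123 and 90.4 CPM in cKO FoB. In GCB, Irgm1 stood at 12.9, 17.0 and 14.4 CPM in WT GCB and 30.3, 27.9 and 17.2 CPM in cKO GCB. WT GCB held 15.8% of the WT FoB level, and the log2 fold change was -2.66 ± 0.22 (edgeR adjusted p = 2.11e-06). Irgm2, another regulatory member, stood at 29.8, 34.1 and 32.7 CPM in WT FoB and 30.2, 42.8 and 31.8 CPM in cKO FoB. In GCB, Irgm2 stood at 9.40, 10.8 and 9.51 CPM in WT GCB and 10.3, 10.9 and 8.79 CPM in cKO GCB. Igtp, the third regulatory member, stood at 38.0, 44.7 and 36.0 CPM in WT FoB and 35.9, 56.1 and 34.4 CPM in cKO FoB. In GCB, Igtp stood at 12.2, 13.8 and 10.4 CPM in WT GCB and 16.0, 18.5 and 10.6 CPM in cKO GCB. Both were separated by cell type in every library, with log2 fold changes of -1.70 ± 0.17 for Irgm2 and -1.71 ± 0.24 for Igtp. Ifi47 changed by -1.76 ± 0.25. Iigp1, an effector member, stayed under 1 CPM in all 12 libraries and changed by -1.70 ± 0.48.

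Of the antiviral effectors, 8 of 10 were lower in WT GCB. Zbp1, which senses nucleic acids in the Z form and can start necroptosis, stood at 63.8, 60.8 and 56.8 CPM in WT FoB and 59.8, 69.5 and 66.9 CPM in cKO FoB. In GCB, Zbp1 stood at 17.4, 14.1 and 16.0 CPM in WT GCB and 23.4, 20.7 and 17.7 CPM in cKO GCB. Every FoB library of Zbp1 lay above every GCB library, with a log2 fold change of -1.93 ± 0.15 for WT GCB over WT FoB (edgeR adjusted p = 1.18e-06). Ifit3, which works with Ifit1 on viral RNA, stood at 25.5, 21.96 and 21.3 CPM in WT FoB and 25.3, 30.4 and 26.5 CPM in cKO FoB. In GCB, Ifit3 stood at 3.29, 1.42 and 2.69 CPM in WT GCB and 4.25, 2.86 and 2.46 CPM in cKO GCB. Ifit1, which binds foreign RNA caps and blocks their translation, stood at 7.09, 6.83 and 6.49 CPM in WT FoB and 8.68, 12.2 and 9.15 CPM in cKO FoB. In GCB, Ifit1 stood at 0.802, 1.04 and 1.40 CPM in WT GCB and 1.05, 1.33 and 0.606 CPM in cKO GCB. The log2 fold change was -3.21 ± 0.30 for Ifit3 and -2.65 ± 0.31 for Ifit1. The other effectors that were lower were Mx1, a dynamin-like GTPase against influenza virus (-3.97 ± 0.90), Rsad2, the antiviral enzyme viperin (-2.49 ± 0.38), Bst2, which tethers virions to the cell (-1.55 ± 0.23), the ubiquitin-like modifier Isg15 (-1.38 ± 0.24) and Ifit2 (-0.92 ± 0.19). C57BL/6 mice are known to carry an Mx1 allele that makes no working protein. The RNA exonuclease Isg20 (-0.24 ± 0.20) and the deoxynucleotide hydrolase Samhd1 (0.13 ± 0.18) did not pass.

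The oligoadenylate synthetases make the second messenger that activates RNase L. In the class of these and related proteins, Oasl1 and Oasl2 among them, 5 of 5 were lower in WT GCB. Oas3 stood at 15.0, 19.2 and 19.2 CPM in WT FoB and 17.2, 17.8 and 19.1 CPM in cKO FoB. In GCB, Oas3 stood at 6.11, 4.97 and 6.70 CPM in WT GCB and 7.25, 7.44 and 7.31 CPM in cKO GCB. Oasl1, which in mice is known to restrain translation of Irf7, stood at 28.4, 27.9 and 27.8 CPM in WT FoB and 27.8, 30.4 and 36.4 CPM in cKO FoB. In GCB, Oasl1 stood at 6.27, 3.84 and 7.10 CPM in WT GCB and 7.59, 4.18 and 5.38 CPM in cKO GCB. Every FoB library of both genes was above every GCB library. Oasl2 stood at 20.5, 21.2 and 20.8 CPM in WT FoB and 18.8, 25.1 and 18.6 CPM in cKO FoB. In GCB, Oasl2 stood at 6.38, 3.50 and 4.01 CPM in WT GCB and 7.40, 7.20 and 5.00 CPM in cKO GCB. The log2 fold changes of these genes were -1.58 ± 0.17 for Oas3, -2.29 ± 0.26 for Oasl1 and -2.17 ± 0.25 for Oasl2. Oas1a changed by -1.37 ± 0.16 and Oas2 by -3.83 ± 1.05, the latter with a wide spread between libraries that followed their number, described further on.

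Of the RNA sensors and their ligase, 2 of 5 were lower in WT GCB. Ddx58, which encodes the sensor RIG-I, stood at 169, 176 and 159 CPM in WT FoB and 166, 195 and 149 CPM in cKO FoB. In GCB, Ddx58 stood at 25.6, 24.9 and 17.0 CPM in WT GCB and 45.3, 39.2 and 19.96 CPM in cKO GCB. It was the one sensor with a steep change, -2.90 ± 0.28 on the log2 scale (edgeR adjusted p = 5.83e-06). Trim25, a ubiquitin ligase that acts on RIG-I, stood at 165, 161 and 177 CPM in WT FoB and 183, 192 and 199 CPM in cKO FoB. In GCB, Trim25 stood at 129.8, 126 and 146 CPM in WT GCB and 142, 148 and 158 CPM in cKO GCB. Its log2 fold change was -0.32 ± 0.11 (edgeR adjusted p = 0.0355), and the adjusted p rose to between 0.0550 and 0.123 when WT FoB 1, 2 or 3 or WT GCB 1 or 2 was left out. Ifih1, which senses long double-stranded RNA, stood at 8.34, 5.23 and 3.56 CPM in WT FoB and 6.42, 9.12 and 5.39 CPM in cKO FoB. In GCB, Ifih1 stood at 4.13, 3.67 and 2.29 CPM in WT GCB and 5.07, 6.03 and 3.52 CPM in cKO GCB. The WT groups of Ifih1 overlapped, and its change of -0.77 ± 0.36 did not pass the test (edgeR adjusted p = 0.0955) but did with the block (0.00622). With the block and without WT FoB 1 it again did not (0.0766), and without the block it passed when WT FoB 3 was left out (0.0400). Dhx58, a regulator of both sensors, and the RNA-activated kinase Eif2ak2 had log2 fold changes of -0.20 ± 0.15 and -0.00 ± 0.21, and neither passed.

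Of the signaling and feedback genes, 5 of 6 were lower in WT GCB. Usp18, which removes Isg15 from proteins and damps the type I receptor, stood at 16.6, 12.8 and 12.5 CPM in WT FoB and 14.5, 16.9 and 15.9 CPM in cKO FoB. In GCB, Usp18 stood at 4.16, 4.01 and 4.05 CPM in WT GCB and 5.86, 4.91 and 4.17 CPM in cKO GCB. Parp14, an ADP-ribosyltransferase, stood at 193, 199 and 194 CPM in WT FoB and 193, 212 and 198 CPM in cKO FoB. In GCB, Parp14 stood at 120.0, 109 and 109 CPM in WT GCB and 118, 128 and 103 CPM in cKO GCB. Usp18 changed by -1.77 ± 0.19 and Parp14 by -0.79 ± 0.12, so the 2 genes differed in size but not in direction. Trim21, a cytosolic antibody receptor and ubiquitin ligase, stood at 45.8, 38.7 and 41.7 CPM in WT FoB and 46.1, 45.7 and 41.8 CPM in cKO FoB. In GCB, Trim21 stood at 30.5, 26.3 and 24.4 CPM in WT GCB and 28.6, 24.8 and 24.2 CPM in cKO GCB. Its log2 fold change was -0.64 ± 0.14, with no overlap between WT FoB and WT GCB. Stat2, a subunit of the response element complex, changed by -0.90 ± 0.25, and Dtx3l by -0.41 ± 0.15. Parp9, which forms a complex with Dtx3l, changed by -0.04 ± 0.17 and did not pass.

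Of the other induced genes, 6 of 6 were lower in WT GCB. Rtp4, a transmembrane chaperone that also binds viral RNA, stood at 16.3, 16.3 and 15.8 CPM in WT FoB and 16.3, 23.4 and 14.9 CPM in cKO FoB. In GCB, Rtp4 stood at 2.52, 1.00 and 1.81 CPM in WT GCB and 2.89, 3.26 and 2.04 CPM in cKO GCB. Lgals9, which encodes the lectin galectin-9, stood at 176, 223 and 184 CPM in WT FoB and 160.5, 234 and 165 CPM in cKO FoB. In GCB, Lgals9 stood at 61.1, 65.5 and 60.0 CPM in WT GCB and 79.2, 84.4 and 65.8 CPM in cKO GCB. Both were lower in every GCB library than in any FoB library. Xaf1, a proapoptotic protein, stood at 31.2, 19.1 and 19.4 CPM in WT FoB and 30.4, 22.1 and 32.3 CPM in cKO FoB. In GCB, Xaf1 stood at 6.95, 3.76 and 4.41 CPM in WT GCB and 9.32, 6.28 and 5.72 CPM in cKO GCB. The log2 fold changes were -3.17 ± 0.32 for Rtp4, -1.64 ± 0.17 for Lgals9 and -2.20 ± 0.30 for Xaf1. Ifi27 changed by -1.01 ± 0.16, Ifi35 by -0.69 ± 0.16 and Ifi44 by -2.99 ± 0.77. Ifi44 stayed under 2 CPM in all 12 libraries. The authors tagged Rtp4 and Ifi47 in their deposited table as overlapping another locus. How the authors assigned reads shared between paralogs is not given in the sources used here, so single values of the Gbp, Ifit, Oas and immunity-related GTPase families are uncertain to that extent.

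The same cell-type comparison in cKO mice gave 35 genes lower and 0 higher, against 21.8% of all genes lower. The median log2 fold change was -1.51. Every cKO FoB library lay above every cKO GCB library for 36 genes, against 25.2% of all genes. With the block, 39 were lower. The 3 genes whose cell-type change differed most in size from that in WT were Mx1 (-2.27 ± 0.82 in cKO), Gbp7 (-3.05 ± 0.60) and Gbp5 (-2.98 ± 0.26), and in each of them the cKO value was the smaller. The Mx1 change passed (edgeR adjusted p = 0.0385) but its adjusted p rose to between 0.0762 and 0.126 when cKO FoB 1, cKO FoB 3, cKO GCB 2 or cKO GCB 3 was left out.

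Between genotypes in GCB, the genes of the chromosome 3 Gbp cluster, Mx1 and Irgm1 had the smallest adjusted p with the block, and all were higher in cKO. Without the block 0 of the 42 passed the test in either direction, against 0.102% of all genes higher. An unadjusted p under 0.05 was reached by 7 of the 42 and by 673 of the 13708 genes. DESeq2 passed 1, Gbp5 (adjusted p = 0.00114). With the replicate number as a block, 6 were higher and 0 lower, against 1.93% of all genes higher, and 17 of the 42 and 1851 of the 13708 genes had an unadjusted p under 0.05. The median log2 fold change was 0.29 over the 42 and -0.00 over all genes.

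The 6 genes that rose in cKO GCB with the block were Gbp5, Mx1, Gbp7, Gbp3, Gbp2 and Irgm1. Gbp5 went from the 3.59, 3.55 and 2.93 CPM of WT GCB to 11.2, 8.85 and 5.00 CPM in cKO GCB, so the groups did not overlap. Its log2 fold change was 1.29 ± 0.17 with the block (edgeR adjusted p = 0.00227) and 1.31 ± 0.26 without (edgeR adjusted p = 0.101). Over 22 alternative settings the adjusted p of Gbp5 ran from 0.000197 to 0.748. The authors' deposited table gives Gbp5 a log2 fold change of 1.33 with a false discovery rate of 0.0689, and for 40 of the 42 genes that it lists in this comparison no rate is under 0.05.

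Mx1 stood at 2.37, 0.376 and 1.04 CPM in WT GCB and 8.68, 1.61 and 2.58 CPM in cKO GCB. The WT and cKO values of Mx1 overlapped as groups, but cKO was above WT within each number, by 1.84, 1.90 and 1.24 on the log2 scale for numbers 1, 2 and 3. With the block the log2 fold change was 1.73 ± 0.26 (edgeR adjusted p = 0.00358), and without it 1.75 ± 0.86 (edgeR adjusted p = 1). Gbp7 stood at 57.0, 29.4 and 26.5 CPM in WT FoB and 52.8, 32.8 and 27.4 CPM in cKO FoB. In GCB, Gbp7 stood at 2.48, 1.38 and 0.361 CPM in WT GCB and 7.89, 3.74 and 2.01 CPM in cKO GCB. Its cKO and WT values overlapped as well, with cKO above WT by 1.64, 1.39 and 2.25 within numbers 1, 2 and 3. WT GCB 3 held only 9 counts of Gbp7, and WT GCB 2 only 9 counts of Mx1. The log2 fold change of Gbp7 was 1.67 ± 0.27 with the block (edgeR adjusted p = 0.00553).

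Gbp3, Gbp2 and Irgm1 rose less. With the block their log2 fold changes were 0.50 ± 0.09 for Gbp3 (edgeR adjusted p = 0.00839), 0.68 ± 0.13 for Gbp2 (edgeR adjusted p = 0.0152) and 0.75 ± 0.15 for Irgm1 (edgeR adjusted p = 0.0202). The differences within numbers 1, 2 and 3 were 0.92, 0.81 and 0.22 for Gbp2 and 1.23, 0.71 and 0.25 for Irgm1, so number 3 showed the smallest rise in both. When each GCB library was left out in turn with the block, Gbp5, Gbp7 and Mx1 passed in 6 of 6 fits. Gbp3 passed in 5 of 6 and failed without WT GCB 1 (0.0821). Gbp2 and Irgm1 passed in 2 of 6 and failed when number 1 or 2 of either GCB group was left out, with adjusted p up to 0.116 and 0.157. With the 4 libraries of number 2 left out, 0 of the 42 passed with the block, and Gbp5 had an adjusted p of 0.0575.

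**Figure D3:**
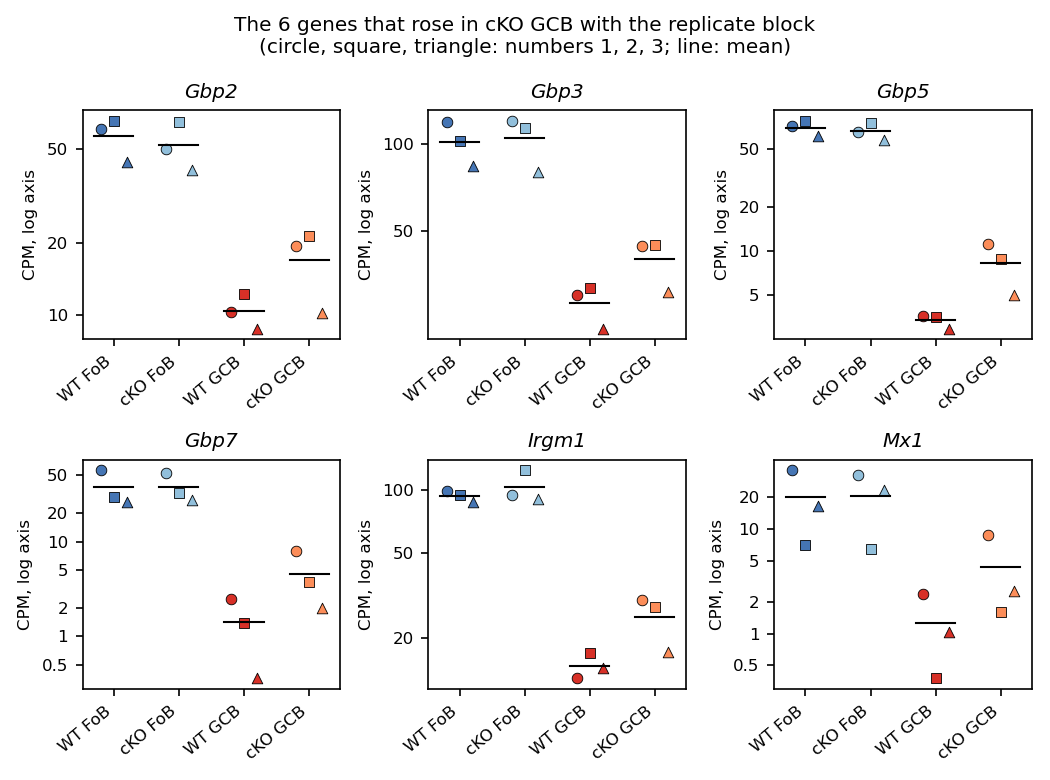
CPM (log axis) of the 6 genes that passed the test in cKO over WT GCB with the replicate block, in each library of the 4 groups, with circles, squares and triangles for numbers 1, 2 and 3 and a line at the group mean. The cKO GCB points lie above the WT GCB point of the same number for all 6 genes, and below every FoB point of the same number.

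The Gbp genes were split by their place in the genome, which was not among the planned comparisons. The chromosome 3 genes had already passed in this same comparison, so their count is not a further test. Gbp2, Gbp3, Gbp5 and Gbp7 lie together at chr3:142496934-142638008, and 4 of 4 rose with the block. Gbp9 lies with Gbp4, Gbp6 and Gbp8 at chr5:105012513-105295871, where 0 of 4 passed with the block. Among all genes, 1.93% were higher with the block. Gbp4 stood at 29.7, 22.7 and 21.0 CPM in WT GCB and 37.0, 26.8 and 19.8 CPM in cKO GCB. Gbp8 stood at 2.33, 1.04 and 1.12 CPM in WT GCB and 2.52, 0.724 and 1.21 CPM in cKO GCB. Gbp6 rested on few counts, 3, 3 and 3 in WT GCB and 12, 5 and 3 in cKO GCB. Gbp9 stood at 145, 98.9 and 110.4 CPM in WT FoB and 147, 128 and 121 CPM in cKO FoB. In GCB, Gbp9 stood at 41.3, 26.1 and 26.9 CPM in WT GCB and 50.4, 34.8 and 25.1 CPM in cKO GCB. Its genotype difference in GCB was 0.21 ± 0.13 with the block (edgeR adjusted p = 0.527), and the groups overlapped. Whether the 2 clusters differ was not tested.

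The other classes moved less in cKO GCB. Of the 10 effectors, 6 lay above 0 and 1, Mx1, passed with the block. Ifit1 had a log2 fold change of -0.14 ± 0.30, Ifit2 -0.11 ± 0.12, Ifit3 0.36 ± 0.24 and Isg15 0.06 ± 0.17. None of these 4 passed (lowest edgeR adjusted p = 0.57). Nor did Rsad2 (0.49 ± 0.35), Bst2 (0.45 ± 0.12), Zbp1 (0.38 ± 0.12), Isg20 (-0.07 ± 0.13) or Samhd1 (-0.27 ± 0.09). All 5 genes of the class of oligoadenylate synthetases and related proteins had differences between 0.00 and 0.74, and none passed. The sensors ran from -0.03 to 0.60, with Ddx58 nearest to the threshold (edgeR adjusted p = 0.0864). The signaling and feedback genes had a median of -0.03, from -0.17 in Parp9 to 0.28 in Usp18. Of the immunity-related GTPases 5 of 5 lay above 0 with a median of 0.29, and Irgm2, at 0.01 ± 0.12, was the lowest. The other induced genes had a median of 0.40, from -0.09 in Ifi35 to 0.61 in Ifi44.

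Single libraries were also compared. Zbp1, Oas3, Usp18, Gbp5, Irgm1 and Lgals9 were higher in every cKO GCB library than in any WT GCB library, which is 6 of 42, and 5.42% of all genes did the same. Within numbers, 22 of 42 were above WT in all 3 numbers, against 18.0% of all genes. The median difference over the 42 was 0.32 for number 1, 0.39 for number 2 and 0.03 for number 3, against medians over all genes of -0.02, 0 and -0.00.

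**Figure D4:**
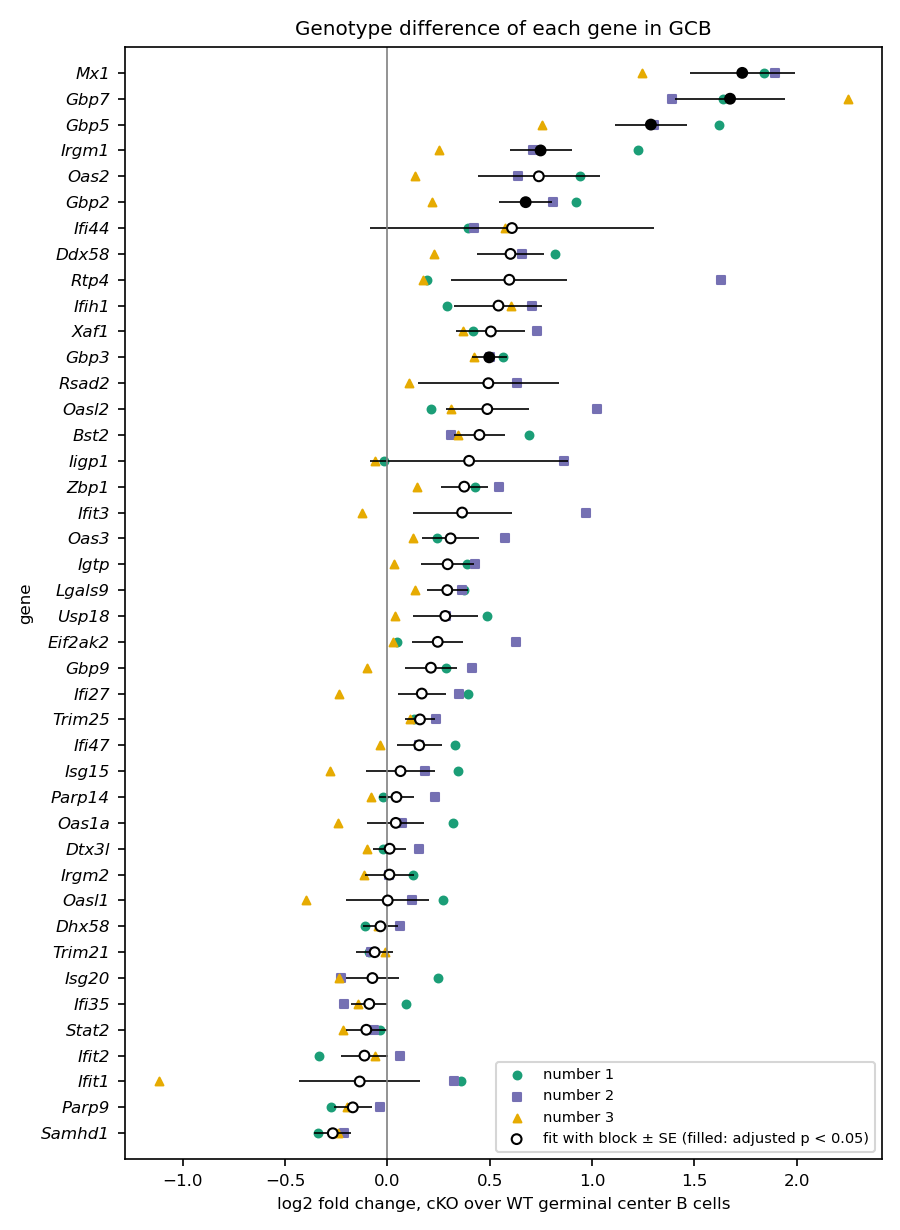
log2 fold change of cKO over WT GCB for each of the 42 genes, sorted by size. Open or filled black circles with bars are the fit with the replicate block ± its standard error, filled where the adjusted p is under 0.05, and coloured points are the differences within numbers 1, 2 and 3. The 6 filled genes are Mx1, Gbp7, Gbp5, Irgm1, Gbp2 and Gbp3, and the triangles of number 3 lie to the left for many genes.

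Some markers of FoB moved with these genes. Of the 12 FoB markers, 4 were higher in cKO GCB with the block, among them Ccr6, Ccr7 and Gpr183, and 0 were lower, and without the block 0 passed. Among all genes, 1.93% were higher in cKO GCB with the block. Ccr6, a chemokine receptor, stood at 11.7, 18.4 and 16.6 CPM in WT GCB and 63.4, 49.0 and 28.5 CPM in cKO GCB, with the smallest cKO value in number 3, as for Gbp5. Summed over the 12 genes, the FoB markers ran from 5771 to 6704 CPM in WT GCB and from 4927 to 6131 CPM in cKO GCB. The mean difference of cKO minus WT in GCB, as a percentage of the WT FoB mean, was 7.10% for Gbp5, 8.34% for Gbp7, 11.6% for Gbp3, 11.7% for Gbp2, 11.1% for Irgm1 and 15.1% for Mx1. These 6 genes were selected by a test of this same difference, so high percentages in them follow in part from that choice. The same percentage was 15.1% for Ccr6, 5.14% for Ccr7 and 14.3% for Gpr183, while it was 3.51% for Fcer2a and 1.52% for Ighd. Over the other 30 interferon-stimulated genes that were lower in WT GCB, it ran from -3.80% to 11.9% with a median of 5.62%, and was above 0 in 24 of them. It was 11.9% for Bst2, 9.11% for Oasl2, 7.87% for Zbp1 and 3.16% for Ifit3, and -1.29% for Ifit1 and -3.80% for Ifit2. Of the 12 GCB markers 2 lay above 0 with the block and 0 passed, and their sum ran from 4404 to 5875 CPM in WT and from 4202 to 4553 CPM in cKO. That list includes Cd38, which was lower in WT GCB than in WT FoB. Cd38 stood at 30.6, 37.9 and 27.8 CPM in WT GCB and 68.7, 55.2 and 25.1 CPM in cKO GCB. The part of FoB in the rise of the 6 genes was not tested.

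Markers of other cells were also compared in GCB, where 1.93% of all genes were higher in cKO with the block. Of 12 T cell markers 11 lay above 0 in cKO and 2, Tcf7 and Cd28, passed with the block, and the summed level was 70.3 to 92.0 CPM in WT and 84.4 to 97.7 CPM in cKO. The defining T cell gene Cd3e stood at 0.267, 0.2503 and 0.0802 CPM in WT GCB and 0.639, 0.845 and 0.227 CPM in cKO GCB. The 8 NK cell markers summed to 7.38 to 10.3 CPM in WT and 11.7 to 15.4 CPM in cKO, and 0 passed. The 12 macrophage and monocyte markers summed to 15.4 to 33.2 CPM in WT and 15.6 to 41.2 CPM in cKO, with 1, Itgam, passing. Of 6 plasma cell markers 1, Prdm1, passed with the block, and it stood at 2.45, 3.92 and 2.57 CPM in WT GCB and 7.78, 8.17 and 4.96 CPM in cKO GCB. Summed, the 6 plasma cell markers overlapped between genotypes, at 1261 to 2095 CPM in WT and 1296 to 2109 CPM in cKO. Of 5 conventional dendritic cell markers tested 1, Zbtb46, passed, and it stood at 0.267, 0.459 and 0.522 CPM in WT GCB and 1.24, 1.81 and 1.10 CPM in cKO GCB. Summed over all 7 on that list, the level was lower in cKO, 88.9 to 90.1 CPM, than in WT, 95.6 to 103 CPM. The 6 neutrophil markers tested all lay below 0 in cKO and 0 passed, with sums of 0.562 to 13.3 CPM in WT and 0.752 to 4.30 CPM in cKO. Of the 6 plasmacytoid dendritic cell and 5 erythroid markers tested, 0 passed. The part of these cells in the result was not tested.

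In FoB the genotypes were not told apart at these genes. Without the block 0 of 42 passed, against 0% of all genes, and with the block again 0 of 42, against 0%. An unadjusted p under 0.05 was reached by 0 of the 42 without the block and 2 with it, and by 95 and 299 of all genes. DESeq2 also passed 0 of the 42. The median log2 fold change was 0.07, and values ran from -0.13 to 0.56. Ifit1 was nearest, at 0.56 ± 0.28, followed by Trim25 at 0.19 ± 0.11 and Ifit2 at 0.24 ± 0.18. Ifit2 stood at 26.02, 25.7 and 22.5 CPM in WT FoB and 27.7, 35.2 and 24.6 CPM in cKO FoB. In GCB, Ifit2 stood at 14.3, 13.9 and 11.1 CPM in WT GCB and 11.4, 14.5 and 10.6 CPM in cKO GCB. For Ifit1 and Trim25 every cKO FoB library lay above every WT FoB library, as for 1.05% of all genes, and for Ifit2 the groups overlapped.

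The difference between the genotype effects, GCB minus FoB, was tested directly. Without the block 0 of 42 passed in either direction, against 0.0073% of all genes higher, which is 1 gene. With the block 1 passed, against 0.263% of all genes higher. It was Gbp5, at 1.38 ± 0.22 on the log2 scale (edgeR adjusted p = 0.0249), and over 32 alternatives its adjusted p ran from 0.00216 to 1. With the block it failed when WT FoB 3, any cKO FoB library, any WT GCB library or cKO GCB 2 was left out, with adjusted p up to 0.138. Mx1 (1.63 ± 0.31, edgeR adjusted p = 0.0572) and Gbp7 (1.64 ± 0.33, edgeR adjusted p = 0.0634) were next and did not pass.

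The levels of some of the 42 genes followed the replicate number. The labels do not say what the number marks. In the fit with the block, 25 of 42 differed between numbers, against 62.5% of all genes, so the share over the list was no higher than the background. Oas2 and Mx1 stood out by size. Oas2 ranked 50 and Mx1 ranked 80 of 13708 genes by p.

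Oas2 stood at 32.7, 4.97 and 12.1 CPM in WT FoB and 29.6, 4.63 and 15.0 CPM in cKO FoB. In GCB, Oas2 stood at 2.45, 0.334 and 0.682 CPM in WT GCB and 4.77, 0.563 and 0.757 CPM in cKO GCB. In all 4 groups number 1 was highest, number 3 intermediate and number 2 lowest. The log2 fold change was -2.83 for number 2 over 1 and -1.51 for number 3 over 1 (edgeR adjusted p = 3.19e-06). Mx1 stood at 36.5, 6.96 and 16.5 CPM in WT FoB and 32.5, 6.43 and 23.3 CPM in cKO FoB, and in GCB at the values given above. Its order of numbers was the same in every group, with log2 fold changes of -2.43 and -1.06 (edgeR adjusted p = 4.2e-06).

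Mx2, the neighbour of Mx1 and also interferon-induced, stood at 12.3, 2.94 and 8.10 CPM in WT FoB and 11.8, 2.69 and 10.7 CPM in cKO FoB. In GCB, Mx2 stood at 1.49, 0 and 0.642 CPM in WT GCB and 2.07, 0.241 and 0.795 CPM in cKO GCB. Number 2 was lowest in each group of Mx2 as well (edgeR adjusted p = 8.25e-05). Oas1a and Oas3, neighbours of Oas2 on chromosome 5, did not differ by number (edgeR adjusted p = 0.759 and 0.398). Oas1a stood at 15.4, 15.9 and 14.9 CPM in WT FoB and 16.9, 16.9 and 14.5 CPM in cKO FoB. In GCB, Oas1a stood at 5.04, 6.09 and 6.74 CPM in WT GCB and 6.31, 6.396 and 5.68 CPM in cKO GCB. Its 3 libraries of a group lay close together, unlike those of Oas2. The next genes by number were Gbp7, Gbp3, Stat2 and Ifi47, with edgeR adjusted p of 0.000125, 0.00015, 0.000168 and 0.000301. Stat2 stood at 162, 122 and 164 CPM in WT FoB and 166, 119 and 178 CPM in cKO FoB. In GCB, Stat2 stood at 97.3, 57.7 and 84.6 CPM in WT GCB and 94.8, 55.2 and 72.9 CPM in cKO GCB. Number 2 was lowest in each group. Ifi47 stood at 85.4, 115 and 78.3 CPM in WT FoB and 86.2, 135 and 76.0 CPM in cKO FoB. In GCB, Ifi47 stood at 26.6, 32.0 and 23.6 CPM in WT GCB and 33.4, 35.6 and 23.0 CPM in cKO GCB. Here number 2 was highest in each group, the opposite order.

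**Figure D5:**
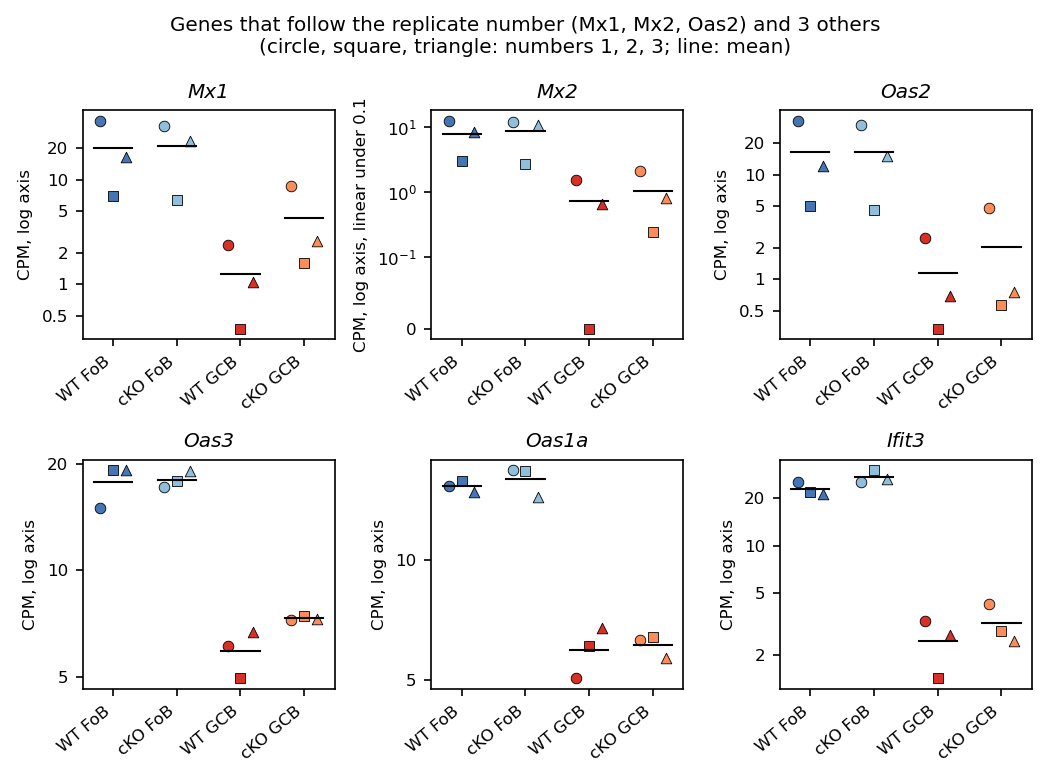
CPM of Mx1, Mx2, Oas2, Oas3, Oas1a and Ifit3 in each library of the 4 groups (log axes, that of Mx2 linear under 0.1), with circles, squares and triangles for numbers 1, 2 and 3 and a line at the group mean. For Mx1, Mx2 and Oas2 the circles lie above the triangles and the squares below them in every group, and for Oas3, Oas1a and Ifit3 they do not.

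The genes upstream and beside the 42 were followed on a list of 65 pathway genes, of which 60 were tested. In WT GCB 39 were lower than in FoB, against 22.8% of all genes lower, and 1, the lambda receptor subunit Ifnlr1, was higher. Of the interferon genes on the list, Ifnb1, Ifna1, Ifna2, Ifna4, Ifna5, Ifna6, Ifnl2, Ifnl3 and Ifne were not analysed here. Ifnab and Ifnk stayed under 1 CPM in all libraries and were not tested, and Ifng stood at 0.730, 0.346 and 0.620 CPM in WT FoB and 0.444, 0.210 and 0.217 CPM in cKO FoB. In GCB, Ifng stood at 0.0382, 0 and 0 CPM in WT GCB and 0.188, 0 and 0 CPM in cKO GCB. Of 9 receptor and kinase genes, 5 were lower, among them Ifnar1 (-1.63 ± 0.15), Ifnar2 (-1.59 ± 0.13) and Ifngr2 (-1.92 ± 0.16), whereas Ifngr1 did not pass (-0.31 ± 0.17).

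Of 6 transcription factors, 5 were lower in WT GCB, among them Irf1 at -1.98 ± 0.16 and Irf9 at -1.71 ± 0.22. Irf3, which is activated by phosphorylation, did not pass (0.07 ± 0.27). Of 6 negative regulators 1, Socs3, was lower, at -4.14 ± 0.33. Of 11 nucleic acid sensing genes 8 were lower, and of 27 other interferon-induced genes 19 were lower. The smallest adjusted p values belonged to Il10rb, a subunit of the lambda and interleukin-10 receptors, and to Slfn5 and Slfn8 of the Schlafen family. Il10rb stood at 66.0, 77.6 and 74.3 CPM in WT FoB and 69.8, 80.6 and 71.2 CPM in cKO FoB. In GCB, Il10rb stood at 8.98, 10.9 and 11.3 CPM in WT GCB and 14.8, 11.7 and 11.97 CPM in cKO GCB. The log2 fold changes were -2.80 ± 0.16 for Il10rb, -4.51 ± 0.31 for Slfn5 and -4.17 ± 0.30 for Slfn8.

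Between genotypes in GCB, 1 of the 60 pathway genes passed without the block, against 0.102% of all genes higher. With the block 6 passed, against 1.93% of all genes higher, and all 6 were higher in cKO. The 1 that passed without the block was Lgals3bp, a secreted glycoprotein that binds galectins. It stood at 4.05, 3.92 and 3.93 CPM in WT GCB and 13.4, 13.3 and 6.93 CPM in cKO GCB. Its cKO libraries were all above its WT libraries, with a log2 fold change of 1.496 ± 0.23 (edgeR adjusted p = 0.0406). Without the block the adjusted p of Lgals3bp rose to between 0.158 and 0.190 when any WT GCB library, cKO GCB 1 or cKO GCB 2 was left out. With the block Tlr7, an endosomal RNA receptor (1.45 ± 0.24), Ifi203 (0.84 ± 0.15) and Mndal (0.88 ± 0.15), both of the interferon-inducible HIN family, Ikbke, a kinase that acts on Irf3 and Irf7 (0.96 ± 0.16), and Tmem173, which encodes STING (0.44 ± 0.10), also passed. Tlr7 stood at 5.50, 9.93 and 4.73 CPM in WT GCB and 27.6, 21.8 and 7.69 CPM in cKO GCB, with its smallest cKO value in number 3. Left out in turn with the block, WT GCB 1 ended the call of Tlr7 (0.0632), and WT GCB 1 or WT GCB 2 that of Ifi203 (up to 0.0849).

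None of the 6 transcription factors passed between genotypes in GCB. Irf1 had a log2 fold change of 0.22 ± 0.10 with the block, Irf7 -0.20 ± 0.09 and Irf9 0.08 ± 0.14. The receptors Ifnar1 (0.20 ± 0.10) and Ifngr2 (0.21 ± 0.10) did not pass either. In FoB 0 of the 60 passed in either fit, with Ifit3b (0.47 ± 0.30), Ifng (-0.94 ± 0.77) and Cmpk2 (0.17 ± 0.17) nearest. For the difference of genotype effects, Lgals3bp passed with the block (1.46 ± 0.25, edgeR adjusted p = 0.0349), while Tlr7 (1.44 ± 0.31) and Ifi203 (0.93 ± 0.20) did not.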

How the data were processed

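RNA-seq counts of 12 libraries were used (the 4 ATAC-seq samples are not analysed here). The authors deposited unnormalized read counts for each Ensembl gene. A second deposited table repeats the counts for 10518 genes with the authors' log2 fold changes, log2 CPM, p-values and false discovery rates. The submitters' processing notes name the build mm10 and the tools Bowtie2, MACS2 and edgeR, and no source used here gives the read counter, annotation or strand setting.

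The members and the other lists were chosen with earlier results of these data known. Genes were filtered with filterByExpr (minimum count 10), which kept 13708 of 25640, and 25607 gene IDs were in the reference names. Counts were fitted in edgeR 4.0.16 (R 4.3.3) by TMM and quasi-likelihood F tests on 4 group means, with Benjamini-Hochberg adjustment over all tested genes and a threshold of 0.05. Standard errors are the fold change divided by the root of F. The genes named with values in every library were Rock2, the members past the test in a genotype comparison (or the 3 nearest), the 3 with the smallest adjusted p per role for GCB against FoB in WT, the 3 with the largest change of that difference in cKO, and 6 for the replicate number. Mx2 and pathway or marker genes with values in several libraries were partly chosen after their values were seen. Some genes of the lists are counted but not reported here by name.

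After group means were taken off, libraries of one number from 2 groups had correlations over genes of 0.478 to 0.753 (18 pairs), and those of different numbers -0.654 to 0.0952 (36 pairs), so the numbers pair the samples. The labels do not state the source of the pairing. The biological coefficient of variation was 0.266 without the block and 0.114 with it. Identical libraries were searched for and 0 pairs found. The fit was tested on simulated data. Alternatives were RLE size factors, other count filters, DESeq2 1.42.0, the groups alone, the block, each library left out and number 2 left out. Promoters came from RefSeq on GRCm38.p6.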

Additional observations from a re-analysis of the deposited data

Results flagged for a closer look

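The difference of cKO from WT at Gbp5 was larger in GCB than in FoB in the fit with the replicate number as a block. The genotype effect in GCB exceeded that in FoB by 1.38 ± 0.22 on the log2 scale (edgeR adjusted p = 0.0249). In GCB cKO was above WT in 3 of 3 numbers, while in FoB Gbp5 had 70.3 ± 8.67 CPM in WT and 66.1 ± 8.97 CPM in cKO (SD, n = 3). Without the block the same difference did not pass (edgeR adjusted p = 0.849). With the block it passed in only 4 of 12 fits that left out 1 library (edgeR adjusted p up to 0.138). Without the 4 libraries of number 2 it did not pass with the block (edgeR adjusted p = 0.311).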

How the results depend on the processing

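No named gene reversed its direction in a comparison of groups under any alternative run. For the replicate number, the log2 fold change of Gbp3 for number 2 over 1 lay near 0 and changed sign, from -0.0933 to 0.000375. Of the values of named genes under alternatives, 898 kept their side of the threshold, 85 newly passed and 20 no longer passed. The count of genes lower in GCB ran from 33 to 38 in WT and from 31 to 40 in cKO, the count higher stayed at 0 in both, the FoB genotype count stayed at 0, and the count that differed by replicate number ran from 21 to 26. The count of genes higher in cKO GCB, 0 without the block, was 1 with no filter on low counts, 1 with DESeq2, 6 with the replicate block, 7 with the block and the GCB libraries alone, and 6 with the block and RLE size factors. Leaving out 1 library gave 0 to 2 without the block (2 without cKO GCB 3) and 3 to 8 with it (8 without cKO GCB 3, 3 without WT GCB 1, and 4 when either number 2 library of GCB or cKO GCB 1 was left out). The count of genes whose genotype effect was higher in GCB than in FoB, 0 without the block, was 1 with the block, 1 with the block and RLE size factors, and 0 to 5 when 1 library was left out with the block (5 without cKO GCB 3). The cause of these changes was not tested. The block fits with RLE factors, with the groups alone and without number 2 were chosen after seeing the data. For the replicate number, DESeq2 used a likelihood ratio test. With 3 libraries per group and 6 residual degrees of freedom with the block, small differences are not resolved, and Iigp1 and Ifi44 rest on few counts. In WT GCB, single libraries of Mx1 and Gbp7 also held few counts.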
